A study of Mus musculus with 12 samples.

Results

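The DEAD-box and DEAH-box RNA helicases were followed as a family in mouse cells given DEP (diethyl phthalate, a solvent and plasticizer). Members were the protein-coding genes with a symbol beginning Ddx or Dhx and a digit, and 53 such genes are annotated. The interferon-linked Ddx58, Ddx60 and Dhx58 were left out, which gave 50, and 48 of these had values for at least 1 line, among 27742 genes for AML12 and 29092 for iWAT. In each line 46 members, the same genes, reached 0.5 FPKM in at least 3 libraries and were tested. The family was chosen by its DEP against DMSO values in these same libraries, so its fold changes and its counts of called genes below are a description and carry no test of the family.

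Transcriptomes were measured by RNA sequencing in 12 libraries of 2 mouse cell lines, in a series on DEP and metabolic disease. AML12 is a hepatocyte line, in background knowledge derived from a mouse with a transforming growth factor alpha transgene, and iWAT is labelled as a white adipocyte line. Each line gave 3 libraries from cells given 50 µM DEP for 48 h from confluence (titled DEP, with DEP in DMEM/F12 for AML12 and in DMEM for iWAT) and 3 control libraries in the same medium, titled DMSO. No genotype or other agent is given, and nothing says that replicates were separate cultures, so errors and p-values may measure only technical spread. Levels are in FPKM, fragments scaled by gene length and library total, as deposited, and a log2 fold change is DEP over DMSO on log2(FPKM + 1), ± its standard error. A member is called, and said to rise or fall, at a limma p-value below 0.05 after adjustment over all genes of the line.

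Helicases of these families share a core that binds RNA and ATP and pries short RNA duplexes open or strips proteins from RNA. DEAD-box members mostly act on short local duplexes, while DEAH-box members pull along a strand, and partner proteins with a G-patch or a MIF4G domain switch them on. In hepatocytes and adipocytes, as elsewhere, they serve the common steps of gene expression: ribosome assembly, splicing, mRNA export, translation and mRNA decay.

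Promoter sequences came from RefSeq (mouse GRCm38.p6), which gave 54 windows for 43 of the members. Each window covers 250 bases before and 50 after a transcription start, and some members have several overlapping windows. Short motifs were searched on both strands. The ETS site, CCGGAAGT or ACTTCCGG, bound by factors such as GABPA, was held by 11 windows, 20.4% of the members' windows, against 5.35% of 20150 windows of protein-coding genes. The windows with it belonged to Ddx17, Ddx27, Ddx39b, Ddx47, Ddx50, Dhx8, Dhx9, Dhx30, Dhx34 and Dhx37. The stretch shown for Dhx9, the member with the largest AML12 rise, is the part of its window before the start (chr1:153487661-153487910, minus strand). The site, in capitals, begins 96 bases before the start. Beside it stand the sites, with 11 bases on each side, of 3 members that were not called in AML12: Ddx17 (chr15:79546952-79546981), Dhx30 (chr9:110117662-110117691) and Dhx37 (chr5:125434094-125434123), all written 5′ to 3′ on the minus strand.
Dhx9: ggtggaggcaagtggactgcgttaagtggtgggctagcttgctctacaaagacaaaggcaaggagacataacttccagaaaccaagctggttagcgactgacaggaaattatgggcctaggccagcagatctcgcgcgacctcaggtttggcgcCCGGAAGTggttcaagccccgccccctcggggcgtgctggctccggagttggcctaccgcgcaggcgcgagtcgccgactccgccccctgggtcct
Ddx17: tgcccagagacCCGGAAGTctgactaaggc
Dhx30: cggccgctccgCCGGAAGTcccgcctgtgt
Dhx37: gcatgcgcaacCCGGAAGTctcctagccag

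By AML12 call, the ETS site was in 19% of the 21 windows of members that rose in AML12 and in 22.6% of the 31 windows of tested members that were not called. These windows cover 18 of the 23 members that rose and all 23 that were not called. The 5 members without a window, Ddx6, Ddx11, Ddx23, Ddx39 and Dhx38, all rose, so the shares leave them out. The same Dhx34 site lay in both windows of that gene and was counted for each. The cyclic AMP response element TGACGTCA was in 11.1% of the members' windows and 2.31% of the protein-coding ones, and the E-box CACGTG in 13% and 8.03%. Overlapping windows of Ddx49 each held the response element and were each counted. It was in 4.76% of the windows of members that rose and 16.1% of those not called. The E-box was in 9.52% and 9.68% of these, and also in windows of the untested Ddx4 and Ddx25. The CCAAT box (CCAAT) was in 44.4% and 37.8%, the E2F site GCGGGAAA in 1.85% and 1.45%, and the TATA box TATAAA in 7.41% and 12.1%. A match is a stretch of letters, and binding was not measured.

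Control cells of both lines carried nearly the whole family. Of the members tested, the lowest AML12 control level was 0.857 FPKM and the median 12.9 FPKM, and the lowest iWAT control level was 5.13 FPKM and the median 15.6 FPKM. The same 3 genes led in both lines. Ddx5 and Ddx17, paralogous coregulators of transcription that also take part in microRNA processing, stood at 185 ± 0.456 and 80.3 ± 1.05 FPKM in AML12 DMSO libraries (SD, n = 3) and at 124 ± 1.23 and 158 ± 2.38 FPKM in iWAT ones. Ddx3x, an X-linked helicase that helps ribosomes start on structured leaders, stood at 117 ± 1.36 FPKM in AML12 and 90.3 ± 0.709 FPKM in iWAT. All 3 were separated from each other, and from the next member, by more than their SDs within each line.

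The tables of the lines were deposited separately, so levels between them are set side by side without a test. Of 46 members, 37 were higher in iWAT controls and 9 in AML12 controls, with a median iWAT over AML12 ratio of 1.41. The order was much alike, with a Spearman rho of 0.83 over the members, whose levels share depth and gene length. A 2-fold gap was passed by 11 members on the iWAT side and 2 on the AML12 side. The widest was that of Dhx40, a helicase of little-known function, at 0.858, 0.804 and 0.910 FPKM in AML12 controls and 13.6, 13.9 and 14.7 FPKM in iWAT controls. Ddx20, the Gemin3 subunit of the SMN complex that assembles spliceosomal ribonucleoproteins, stood at 5.55 against 20.2 FPKM. On the AML12 side, Dhx32, also of little-known function, stood at 20.6 against 7.36 FPKM and Dhx34, a factor of nonsense-mediated decay, at 15.5 against 6.41 FPKM.

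**Figure D1:**
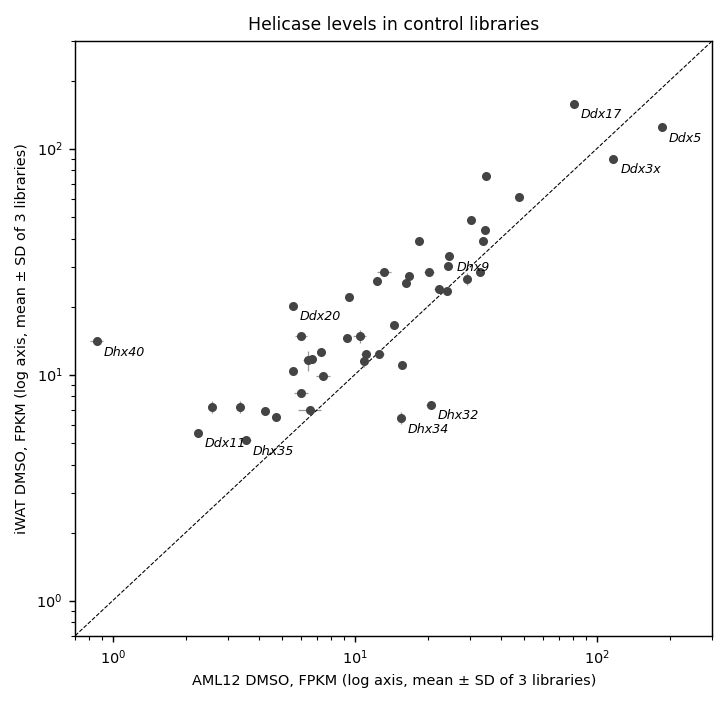
Mean FPKM of each of 46 helicases in the 3 DMSO libraries of AML12 (x axis) and of iWAT (y axis), both axes logarithmic, with SD bars and a dashed line of equal level. Most members lie above the line, Dhx40 farthest at 0.857 and 14.03 FPKM, while Dhx32 and Dhx34 lie well below it.

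The germ line helicases marked the limit of detection. Ddx4, the germ cell helicase Vasa, was listed at 0 in 5 AML12 libraries and at 0.0264 FPKM (4 reads) in DEP replicate 3. In iWAT it lay at 0.0663 to 0.0790 FPKM in DMSO libraries and at 0.0753 to 0.139 FPKM in DEP libraries. Ddx25, a testis helicase, lay at 0.00576 to 0.0412 FPKM in iWAT, on 2 to 14 reads, and was not analysed in AML12. Both stayed under the level needed for a test, while Dhx40 in AML12, at 155 to 272 reads per library, was the lowest member tested. In DEP libraries Dhx40 stood at 1.21, 0.916 and 1.06 FPKM in AML12 and at 12.4, 13.8 and 12.5 FPKM in iWAT, called in neither line. Ddx43 and the Y-linked Ddx3y were not analysed here.

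In AML12 cells given DEP, 23 of the 46 tested helicases rose and none fell. Over all 12929 genes tested in AML12, 23.9% rose and 15.3% fell. DEP libraries lay wholly above DMSO libraries for 25 members and wholly below for 0, against 31.6% and 20.4% of all genes. Because these values chose the family, nothing is read from its share against those of all genes. The median log2 fold change was 0.10 over the members and 0.03 over all genes, and 41 members lay above 0. Centred on each library's median, 33 members lay above 0 and 16 rose, and with upper quartile scaling 34 lay above 0 and 15 rose. None fell under either scaling. Over all genes the same scalings moved the calls from 3092 up and 1982 down to 2357 and 2545, and to 2416 and 2444. In bulk RNA, a change in the share of cells that carry a transcript and a change in its amount per cell cannot be told apart.

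Summed over the 46 members, the AML12 level was 1024 to 1028 FPKM in DMSO libraries and 1134 to 1143 FPKM in DEP libraries. The groups did not overlap. Some other measures moved with the treatment. Totals per library were 42845105 to 46232482 reads in AML12 DMSO and 49249612 to 52915505 in AML12 DEP, while iWAT libraries had 50035049 to 54585090 with DMSO and 47735539 to 49059544 with DEP. Depth thus moved opposite ways in the lines. The part of depth in the results was not tested.

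Cell type markers matched the AML12 label in part. In AML12 controls Hnf4a, a hepatocyte transcription factor, stood at 88.5 FPKM and Alb, serum albumin, at 25.9 FPKM, while Fga, a fibrinogen chain, was at 0.0520 FPKM. Of 7 hepatocyte markers tested in AML12, 5 rose and 1 fell with DEP, and the list's summed level went from 520 to 530 FPKM in DMSO to 585 to 598 FPKM in DEP libraries. The simple epithelial keratins Krt8 and Krt18 both rose. The summed leukocyte markers went from 10.5 to 11.98 FPKM in DMSO to 4.27 to 4.602 FPKM in DEP libraries, nearly all from Cd68, which other cells also express in lysosomes. The pan-leukocyte marker Ptprc was at 0.00747 FPKM in AML12 controls, and summed endothelial markers were at most 0.328 FPKM in AML12.

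The adipocyte markers matched the iWAT label only in part. Adipoq, the fat cell hormone adiponectin, stood at 0.0184 FPKM and Plin1, which coats lipid droplets, at 0.00285 FPKM in iWAT controls, while the adipogenic regulator Pparg stood at 9.84 FPKM. Also on the adipocyte list, Lpl stood at 8.46, Fabp4 at 1.63, Cebpa at 0.502 and Cidec at 0.0275 FPKM in iWAT controls. Mesenchymal markers were plentiful, and 5 of 6 fell with DEP, their summed level going from 251 to 259 FPKM to 192 to 201 FPKM. Summed adipocyte markers went from 19.9 to 21.2 FPKM to 16.7 to 17.9 FPKM in iWAT, and Cd68 rose from 10.9 to 13.4 FPKM. The part of these markers in the helicase results was not tested in either line.

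The largest rise was that of Dhx9 (ENSMUSG00000042699), RNA helicase A, which unwinds double-stranded RNA and RNA-DNA hybrids and bridges transcription factors to RNA polymerase II. It stood at 24.4, 24.4 and 24.7 FPKM in AML12 DMSO libraries and at 37.3, 37.5 and 37.7 FPKM in DEP libraries, or 10165 to 10836 and 17731 to 18955 reads. The gap between the groups was many times the spread within them, and the mean was 1.53-fold higher with DEP (log2 fold change 0.59 ± 0.02). In iWAT the same gene stood at 33.3, 33.8 and 32.9 FPKM in DMSO and at 31.2, 31.7 and 32.3 FPKM in DEP libraries, all 3 below the controls but not called (-0.07 ± 0.02).

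Ddx39 (ENSMUSG00000005481, also named Ddx39a), a helicase of mRNA export, stood at 19.1, 20.9 and 20.8 FPKM in AML12 DMSO and at 26.8, 27.5 and 27.0 FPKM in DEP libraries (0.40 ± 0.04). In iWAT its values were 27.8, 29.0 and 28.9 FPKM in DMSO and 31.7, 30.5 and 29.9 FPKM in DEP libraries, apart in the same direction but not called (0.10 ± 0.03). Of its exon bases, 17.36% overlap Adgre5 on the other strand, and the strand setting of the count is not given in the sources used here. Adgre5 itself stood at 30.9 FPKM in both AML12 groups. Ddx11 (ENSMUSG00000035842), an iron-sulphur DNA helicase of sister chromatid cohesion that carries a DEAH box, stood at 2.27, 2.23 and 2.23 FPKM in AML12 DMSO and at 3.22, 3.11 and 3.29 FPKM in DEP libraries (0.38 ± 0.04). Its groups were well apart in AML12, whereas in iWAT its ranges met, at 5.38, 5.74 and 5.49 against 5.31, 5.48 and 5.01 FPKM. The 1 added to FPKM shrinks log2 fold changes at low levels. As a ratio of AML12 means, Ddx11 was 1.43-fold higher with DEP and Ddx39 1.34-fold, so their order depends on the scale.

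Ddx46 (ENSMUSG00000021500), which remodels the U2 ribonucleoprotein at the branch site, stood at 16.4, 16.4 and 16.1 FPKM in AML12 DMSO and at 20.8, 20.7 and 20.5 FPKM in DEP libraries (0.32 ± 0.02). Its iWAT values were 24.98, 25.5 and 25.9 FPKM in DMSO and 26.8, 26.1 and 27.0 FPKM in DEP libraries (0.06 ± 0.02, not called). Both lines thus had every DEP library above every control, with a far wider gap in AML12. Ddx3x (ENSMUSG00000000787) stood at 116, 118 and 116 FPKM in AML12 DMSO and at 143, 145 and 146 FPKM in DEP libraries (0.31 ± 0.02). In iWAT it overlapped, at 89.8, 89.9 and 91.1 FPKM in DMSO and 86.7, 91.4 and 92.3 FPKM in DEP libraries. Ddx20 (ENSMUSG00000027905) stood at 5.59, 5.45 and 5.601 FPKM in AML12 DMSO and at 7.78, 7.11 and 6.38 FPKM in DEP libraries (0.30 ± 0.06). Its DEP libraries were spread from 6.38 to 7.78 FPKM, and all lay above the controls. In iWAT Ddx20 stood at 20.4, 20.1 and 20.1 FPKM in DMSO and at 21.2, 21.5 and 21.8 FPKM in DEP libraries (0.09 ± 0.02, not called).

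**Figure D2:**
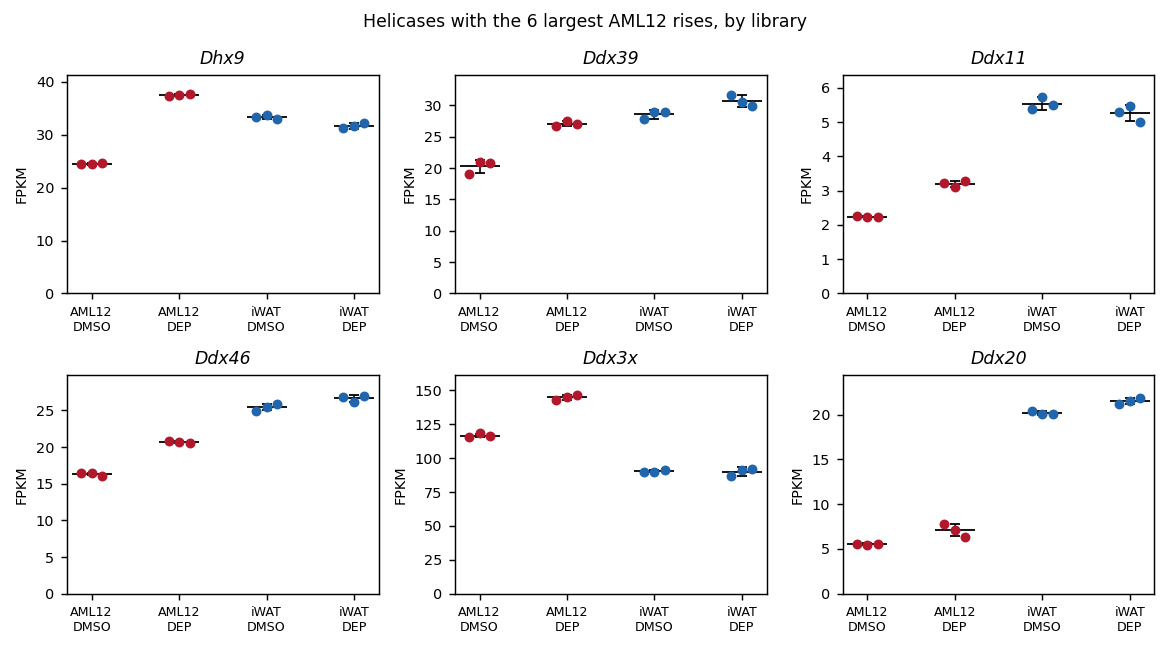
FPKM (y axes, from 0) of the 6 helicases with the largest AML12 rises in each library (points), with the group mean and SD (bars), for AML12 and iWAT, DMSO and DEP. In AML12 every DEP library of the 6 lies above every DMSO library, while Ddx11 and Ddx3x overlap in iWAT and Dhx9 is lower with DEP there.

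Ribosome assembly was the largest role group, with 16 members, of which 8 rose in AML12 (median 0.10). For this count and the role counts that follow, 23.9% of all genes tested in AML12 rose and 15.3% fell. Ddx51, needed for large-subunit rRNA maturation, went from 7.41 to 8.83 FPKM (0.23 ± 0.05). Ddx18, the counterpart of yeast Has1, went from 34.5 to 39.9 FPKM (0.21 ± 0.02). Of the 50-base words of Ddx18, 55.89% also occur in other genes, foremost its copy Gm16433, so its reads are uncertain, although Gm16433 stood at 1.33 FPKM in both AML12 groups. Dhx33, which acts in rRNA transcription, rose by 0.20 ± 0.03 and Ddx56, a large-subunit factor, by 0.19 ± 0.03. Smaller rises were those of Ddx47, a small-subunit factor (0.16 ± 0.04), Ddx27 (0.14 ± 0.04), Ddx21, which couples rRNA transcription and processing (0.11 ± 0.02), and Ddx54 (0.10 ± 0.03). Of the uncalled members of the group, Ddx24 and Ddx50 lay at -0.05 ± 0.04 and -0.04 ± 0.05. The other 6 lay between 0.05 and 0.15.

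Splicing helicases rose in 4 of 9 cases in AML12 (median 0.10). Besides Ddx46 these were Dhx15, which takes spent spliceosomes apart, Ddx23, which releases U1 from the 5′ splice site (0.15 ± 0.03), and Dhx38, which prepares exon ligation (0.10 ± 0.03). Dhx15 stood at 30.0, 30.5 and 30.0 FPKM in AML12 DMSO and at 35.1, 35.0 and 34.7 FPKM in DEP libraries (0.21 ± 0.02), and at 48.1, 48.7 and 48.2 against 47.3, 48.1 and 49.6 FPKM in iWAT. Its groups were apart in AML12 and overlapped in iWAT. The branching helicase Dhx16 and the mRNA release helicase Dhx8 both lay at 0.01 ± 0.04 in AML12. Ddx41, Ddx42 and Dhx35, other helicases found in spliceosomes, lay at 0.03, 0.04 and 0.14 and were not called.

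Among export helicases 3 of 4 rose in AML12 (median 0.20). Ddx39b, the paralog of Ddx39 in the TREX export complex, went from 34.9 to 40.6 FPKM (0.21 ± 0.03), and Ddx19b, which strips export factors from mRNA at the nuclear pore, from 4.74 to 5.49 FPKM (0.18 ± 0.04). Its near copy Ddx19a lay at 0.07 ± 0.03 without a call. The 50-base words of Ddx19b occur in Ddx19a for 12.42% and those of Ddx19a in Ddx19b for 28.13%, so the split of reads between them is uncertain.

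In translation and mRNA turnover 3 of 5 rose in AML12 (median 0.13). Besides Ddx3x these were Dhx29, which helps the small ribosomal subunit through structured leaders, from 6.01 to 6.96 FPKM (0.18 ± 0.06), and Ddx6, a decapping partner and microRNA effector, from 18.5 to 20.2 FPKM (0.13 ± 0.03). The G-quadruplex helicase Dhx36 (0.02 ± 0.03) and Dhx34 (-0.06 ± 0.03) were not called. Of the group for transcription, microRNA processing and ribonucleoprotein assembly, 4 of 5 rose (median 0.14). Next to Dhx9 and Ddx20, Ddx1, a subunit of the tRNA ligase complex, went from 33.7 to 37.4 FPKM (0.14 ± 0.02) and Ddx5 rose slightly (0.06 ± 0.02), while Ddx17 lay at 0.02 ± 0.02. The mitochondrial ribosome factors Ddx28 and Dhx30 lay at 0.01 ± 0.04 and -0.06 ± 0.04, and none of the 4 members of less defined role (Ddx59, Dhx32, Dhx40 and Dhx57) was called. By name, 18 of 31 tested Ddx genes and 5 of 15 Dhx genes rose in AML12, where 23.9% of all genes rose. No difference between the 2 names was tested.

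The AML12 rises were of unequal firmness. Of the 23, 16 were called whichever library was left out, and 15 of these also under every other setting tried at the same threshold. At an adjusted p below 0.01 in the fit of all libraries, 14 of the 23 were called. The calls of Ddx5, Ddx6, Ddx27, Ddx47, Ddx54, Dhx29 and Dhx38 ended in the limma test without 1 library or another, with adjusted p-values of up to 0.0687, 0.0596, 0.0714, 0.0813, 0.112, 0.104 and 0.108. For Ddx54, Dhx29 and Dhx38 this was so for 5 of the 6 libraries. For Ddx6 it was so without DEP replicate 1 or 2, and for Ddx27 without DEP replicate 2 or 3. Ddx5 lost its call without DMSO replicate 1, 2 or 3 or DEP replicate 3, and Ddx47 without DMSO replicate 1 or 2 or DEP replicate 2 or 3. The 6 largest rises are not among them.

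**Figure D3:**
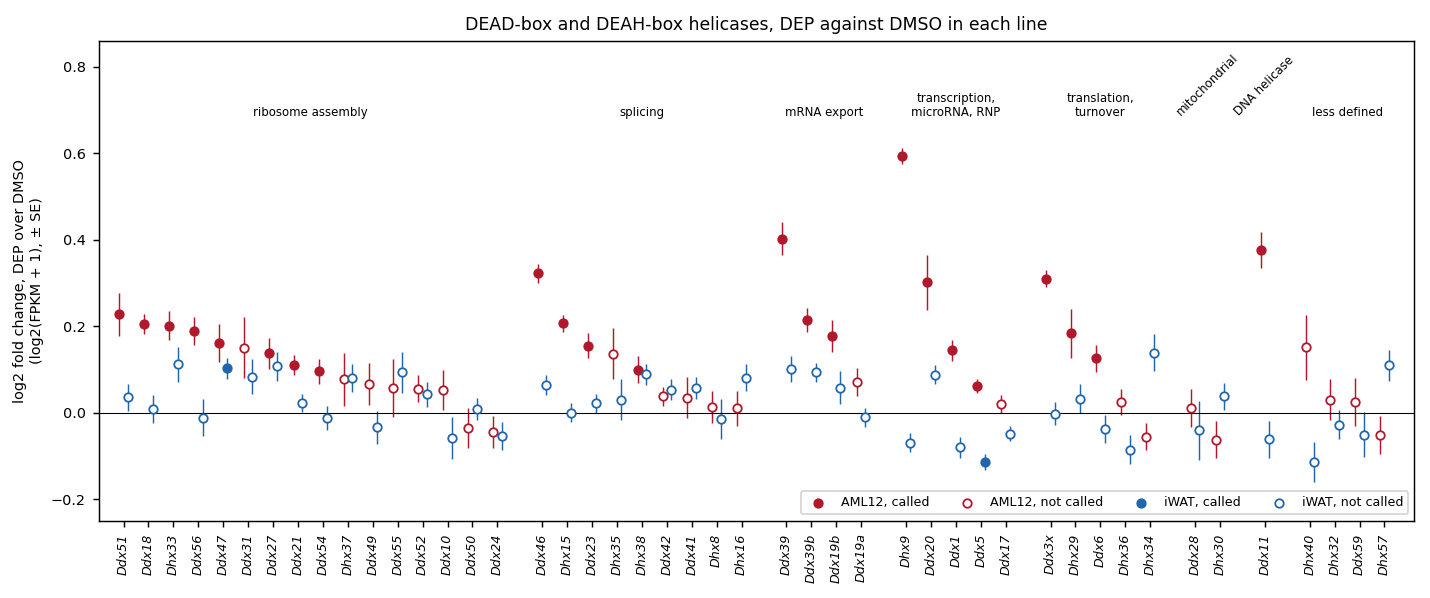
Log2 fold change of DEP over DMSO (y axis, log2(FPKM + 1) scale, ± SE from limma, n = 3 libraries a group) of each of the 46 tested helicases (x axis), grouped by role and ordered by the AML12 value, for AML12 (red) and iWAT (blue), with called members filled. AML12 points run up to 0.59 for Dhx9, while all iWAT points lie between -0.11 and 0.14 and only Ddx47 and Ddx5 are filled.

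In iWAT cells given DEP, 1 of the 46 tested helicases rose and 1 fell. Over all 13482 genes tested in iWAT, 4.03% rose and 4.52% fell. DEP libraries lay wholly above DMSO libraries for 14 members and wholly below for 5, against 17.2% and 14% of all genes. The median log2 fold change was 0.02 over the members and 0.01 over all genes, and members ranged from -0.11 to 0.14. Their summed level was 1255 to 1275 FPKM in DMSO and 1261 to 1274 FPKM in DEP libraries, so the groups overlapped.

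The iWAT rise was that of Ddx47 (ENSMUSG00000030204), at 21.98, 21.91 and 21.996 FPKM in DMSO and 24.2, 23.1 and 23.6 FPKM in DEP libraries (0.10 ± 0.02). Its AML12 values were 9.21, 9.39 and 9.79 FPKM in DMSO and 10.2, 11.3 and 10.6 FPKM in DEP libraries, so DEP was the higher group in both lines. The iWAT fall was that of Ddx5 (ENSMUSG00000020719), at 123, 125 and 125 FPKM in DMSO and 113, 116 and 115 FPKM in DEP libraries (-0.11 ± 0.02). Ddx5 went the other way in AML12, at 185, 185 and 185 FPKM in DMSO and 195, 192 and 193 FPKM in DEP libraries. In limma this AML12 call ended when centred, with upper quartile scaling, with a replicate block and without a trend (adjusted p up to 0.269). Of the 50-base words of Ddx5, 14.56% occur in other genes, chiefly the copy Gm12183, which fell in iWAT from 7.49 to 6.52 FPKM (-0.18 ± 0.03) and stood at 12.4 FPKM in both AML12 groups. Both iWAT calls ended without some libraries. Ddx47 lost its call in limma whichever library was left out (adjusted p up to 0.124) and when centred, with 0 members up in each case. Ddx5 lost its call without DMSO replicate 2 or 3 (adjusted p up to 0.0603).

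By role, iWAT values were small throughout, and for the counts that follow 17.2% of all genes lay wholly above the controls and 14% wholly below. The transcription and ribonucleoprotein group had 4 of 5 members (Ddx1, Ddx5, Ddx17 and Dhx9) with every DEP library below every control, at a median of -0.07, and Ddx20 above. Splicing members had 5 of 9 with every DEP library above the controls (median 0.05). Ribosome assembly members had 4 of 16 wholly above and 0 wholly below (median 0.03). The largest uncalled iWAT values were those of Dhx34 (0.14 ± 0.04) and Dhx40 (-0.11 ± 0.05). With voom in limma on reads recovered from the FPKM, 6 iWAT members rose and 4 fell, the falls being those of Ddx1, Ddx5, Ddx17 and Dhx9. Over all 12593 genes in the voom fit of iWAT, 1012 rose and 917 fell, against 543 and 609 of 13482 in the main fit.

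**Figure D4:**
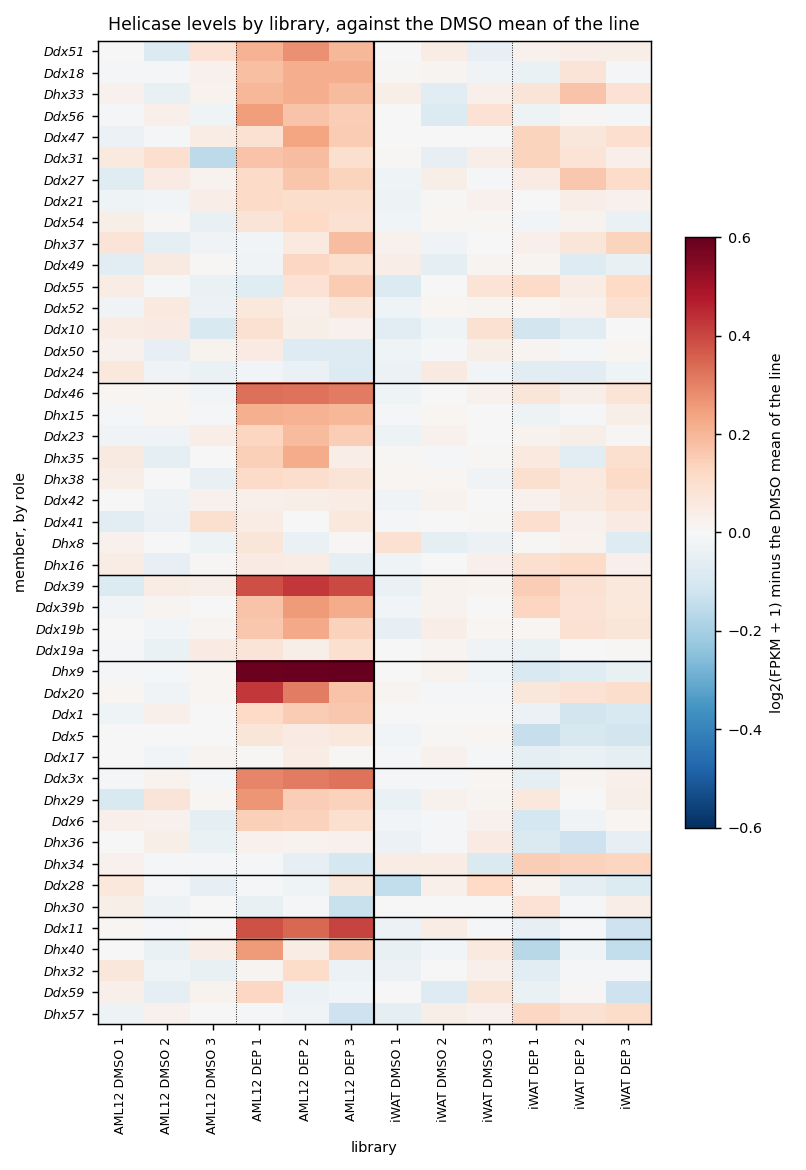
Level of each of the 46 tested helicases (rows) in each of the 12 libraries (columns) as log2(FPKM + 1) minus the mean of the line's DMSO libraries, red above and blue below. Rows follow the roles from ribosome assembly to less defined, and Dhx9, Ddx11, Ddx39, Ddx46, Ddx3x and Ddx20 form the dark AML12 DEP cells, with the iWAT cells pale.

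The lines were set against each other in limma, with all 12 libraries fitted together and an interaction between line and treatment. The AML12 log2 fold change was the higher for 17 of 46 members and the lower for 2, while over 14651 genes the shares were 17.6% and 11.7%. The median difference was 0.09 over the members and 0.02 over all genes. Under median centring 9 members passed on the AML12 side and with upper quartile scaling 10. The 17.6% and 11.7% belong to the main fit and are no measure for these counts. Shares of all genes under those scalings are not given here. The 6 members with the smallest p were Dhx9 (0.66 ± 0.03), Ddx11 (0.44 ± 0.05), Ddx3x (0.31 ± 0.03), Ddx46 (0.26 ± 0.03), Dhx15 (0.21 ± 0.03) and Ddx5 (0.18 ± 0.02). These 6 passed whichever library was left out. The 2 lower in AML12 were Dhx34 (-0.19 ± 0.05) and Dhx57 (-0.16 ± 0.05), neither of which was called within a line. Dhx57 lost its pass without any of 7 libraries (AML12 DMSO replicates 2 and 3, AML12 DEP replicate 3, iWAT DMSO replicate 1 and each iWAT DEP replicate), with an adjusted p of up to 0.0849 and 1 member left.

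Across the 46 members Pearson's r between the lines' log2 fold changes was -0.00095 and Spearman's rho 0.10, as a description across genes that are not independent. Over all 11399 genes tested in both lines r was 0.019 and rho 0.043, so a correlation near 0 was not particular to the helicases. In both lines 22 members lay above 0, 19 in AML12 alone and 4 in iWAT alone. The same counts over all genes are not given here. The left-out interferon-linked genes went down in iWAT, where Dhx58, a regulator of RNA sensing, fell from 19.0 to 13.0 FPKM (-0.52 ± 0.05), Ddx60 from 3.47 to 2.22 FPKM (-0.47 ± 0.06) and Ddx58, the RNA sensor RIG-I, from 27.6 to 21.8 FPKM (-0.32 ± 0.02). In AML12 Ddx58 stood at 2.86 and 2.504 FPKM without a call and Dhx58 at 0.124 and 0.114 FPKM, untested.

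Helicases outside the naming rule and partner proteins were counted from lists that were drawn up with earlier results of these data known. For all list counts that follow, 23.9% of all genes tested rose and 15.3% fell in AML12, with a median of 0.03. In iWAT 4.03% rose and 4.52% fell. The 3 eIF4A genes, DEAD-box helicases under another name, split in AML12. Eif4a1, the main helicase of translation initiation, rose from 234 to 275 FPKM (0.23 ± 0.02) and Eif4a3, of the exon junction complex, from 56.5 to 65.9 FPKM (0.22 ± 0.03), while the Eif4a1 paralog Eif4a2 fell from 113 to 78.0 FPKM (-0.52 ± 0.02). In iWAT Eif4a1 and Eif4a2 both fell, by 0.11 and 0.09 on the log2 scale. Of 15 further RNA helicases outside the naming rule, 6 rose and 0 fell in AML12 (median 0.10). Among the rises were the decay helicase Upf1 (0.23) and Ascc3, which rescues collided ribosomes (0.24). In iWAT 1 rose, Upf1 (0.13), and 2 fell, the antiviral factors Mov10 (-0.24) and Znfx1 (-0.22).

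Some partner proteins switch helicases on. G-patch proteins rose in 7 of 20 cases in AML12, and 1 fell. Their median of 0.02 was no higher than the 0.03 of all genes. Among the rises were the splicing factors Son (0.25) and Rbm10 (0.19) and the nucleolar Pinx1 (0.25). In iWAT 3 rose and 0 fell, namely Cherp (0.14), Gpatch3 (0.22) and Son (0.08). Of 11 MIF4G proteins, 6 rose and 0 fell in AML12 (median 0.09), among them the translation scaffolds Eif4g1 (0.27) and Eif4g2 (0.14) and the cap-binding Ncbp1 (0.16). In iWAT Ctif rose (0.18) and Eif4g2 fell (-0.12).

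Of 14 export and exon junction proteins, 9 rose and 0 fell in AML12 (median 0.17). The adaptor Alyref, which partners Ddx39 and Ddx39b, went from 17.6 to 23.4 FPKM (0.40 ± 0.03), the TREX subunit Thoc2 from 10.4 to 12.3 FPKM (0.22) and the export receptor Nxf1 from 31.5 to 36.3 FPKM (0.20). In iWAT 2 rose, Thoc6 (0.20) and Casc3 (0.16), and 1 fell, Nxt1 (-0.18). Of 18 ribosome assembly factors that are no helicase, 15 rose and 0 fell in AML12 (median 0.20), led by Nolc1, a nucleolar chaperone, from 56.8 to 70.3 FPKM (0.30 ± 0.02), the snoRNP protein Nop58 from 13.7 to 17.8 FPKM (0.36 ± 0.03) and Utp20 of the small-subunit processome from 6.41 to 8.89 FPKM (0.42 ± 0.03). In iWAT 2 rose, Nop2 and Utp20, both by 0.13.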

How the data were processed

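RNA sequencing gave 12 libraries, 3 for each of DMSO and DEP in AML12 and in iWAT cells, grouped by their titles. Trimmomatic, HISAT2 and the GRCm39 build are named in the submitters' processing notes; versions, counting tool, annotation and strand setting are not given in the sources used here. Libraries were made with a stranded total RNA kit, per the labels' protocols. The deposited values were taken as FPKM, 1 table per line, a unit read from the values since the file headers give sample names only. Reads were recovered from FPKM with GENCODE M21 exon lengths and were whole, within 0.001, for 89.4% of genes in each line. They served for read counts and for voom. Totals of 42845105 to 54585090 reads limit precision by counting error only.

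Symbols, gene types and exon lengths came from GENCODE M21 (GRCm38), which named 26394 AML12 and 27640 iWAT genes, and its coordinates served only for exon lengths and overlaps between annotated genes. No coordinate of the files was set against them. Within each line limma was run on log2(FPKM + 1) with a mean-dependent prior over genes reaching 0.5 FPKM in 3 or more libraries, two-sided, adjusted by Benjamini-Hochberg over all genes. The difference between lines was the interaction in a joint fit of genes in both tables. The fits were tested on simulated data. Values in every library are given for the 6 called members with the largest rise and fall. They are also given for the 6 with the smallest p of the difference and for those next to the detection limit. Of the latter, Ddx4 in iWAT and Ddx25 are given as ranges. Genes outside the family are named only from the lists, at most 3 called per list and line, by smallest p. The members, role groups and lists were chosen with earlier results of these data known. Replicate numbers did not pair libraries, and no per-sample column was left unused. Shared 50-base words were counted between annotated transcript sequences. Alternatives were pseudocounts of 0.1 and 0.5, no filter or 1 FPKM, median centring, upper quartile scaling, a replicate block, no trend, voom, a joint fit, an adjusted p below 0.01 and leaving out each library. Software was limma 3.58.1 (R 4.3.3), and matplotlib 3.10.9, pandas 2.3.3 and numpy 2.4.6 under Python 3.11.15.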

Additional observations from a re-analysis of the deposited data

Results flagged for a closer look

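For 19 helicases the log2 fold change of DEP over DMSO differed between the lines in the interaction test of limma, at an adjusted p below 0.05 over 14651 genes. As AML12 minus iWAT, the differences were 0.66 for Dhx9, 0.44 for Ddx11, 0.31 for Ddx3x, 0.30 for Ddx39, 0.26 for Ddx46, 0.26 for Dhx40, 0.22 for Ddx1, 0.21 for Ddx20, 0.21 for Dhx15, 0.20 for Ddx18, 0.20 for Ddx56, 0.19 for Ddx51, 0.18 for Ddx5, 0.16 for Ddx6, 0.13 for Ddx23, 0.12 for Ddx39b and 0.11 for Ddx54. They were -0.19 for Dhx34 and -0.16 for Dhx57. The family was proposed with these values known, so they are a description. Of the 19, 11 passed whichever library was left out, and 10 of these under every other setting at the same threshold as well. At an adjusted p below 0.01, 9 passed. The other 8 lost the pass without at least 1 library, with adjusted p-values of up to 0.0802 for Ddx20, 0.0581 for Ddx39b, 0.0738 for Ddx51, 0.102 for Ddx54, 0.0519 for Ddx56 (without AML12 DMSO replicate 3), 0.0505 for Ddx6 (without iWAT DMSO replicate 3), 0.0716 for Dhx40 and 0.0849 for Dhx57. The Dhx40 difference lies beside the widest gap in control level, 0.857 against 14.03 FPKM.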

How the results depend on the processing

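No called helicase changed sign under any setting. The AML12 count of 23 rises became 15 with upper quartile scaling and 14 at an adjusted p below 0.01, and 17 to 20 without single libraries. It stayed within 1.5 times under the other settings, including median centring (16) and a replicate block (19), and the AML12 count of falls was 0 throughout. The iWAT count of rises (1) became 0 without a filter, when centred, with the replicate block, without a trend and at 0.01. It was also 0 whichever library was left out. The count was 2 with a filter of 1 FPKM, 3 with upper quartile scaling and 6 with voom. In a joint fit it was 2, namely Ddx39b and Dhx34, while Ddx47 lost its call there. The iWAT fall (1) became 0 with the block, without a trend and at 0.01, 2 in a joint fit, 4 with voom, and 0 to 2 without single libraries. Differences higher in AML12 (17) became 9 when centred, 10 with upper quartile scaling, 9 at 0.01 and 14 with the block. Differences lower in AML12 (2) became 1 with a pseudocount of 0.1, without a filter and with the block, 0 at 0.01, and 1 to 2 without single libraries. Summed AML12 control levels went from 1026 to 1039 FPKM with upper quartile scaling. The causes were not tested. Deviations of same-numbered libraries correlated between -0.0563 and 0.0289 over genes, so the replicate numbers were not taken to pair them. Depth gave tested members at least 155 reads per library. Reads cannot settle Ddx18, Ddx5, Ddx19a and Ddx19b, which share sequence with copies, nor Ddx39, Ddx41, Ddx49 and Ddx54, which overlap antisense genes.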
